A study of Saccharomyces cerevisiae with 4 samples.

Results

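The histone genes of Saccharomyces cerevisiae were followed in cells with wild-type HSF1 and in cells with the allele hsf1-R206S/F256S. They are the 10 genes for the core histones (HTA1, HTA2, HTB1, HTB2, HHT1, HHT2, HHF1 and HHF2), the linker histone (HHO1) and the variant H2A.Z (HTZ1), chosen by gene symbol. Each had 1 spot, out of 6051 named genes and unnamed spots. 2 arrays carried RNA from HSF1 wt cells and 2 carried RNA from hsf1-R206S/F256S cells, called the mutant here. All cells had been at 39 °C for 15 min, and no unheated sample was analysed here. Total RNA was copied with an oligo(dT) primer into 33P-labelled cDNA, so each array holds 1 sample. HSF1 encodes the heat shock transcription factor, and the allele carries 2 amino acid substitutions. The labels do not name the parent strain, how the allele was introduced, or say if replicates came from separate cultures, and the tests therefore measure the spread between these arrays, which may be technical.

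Histones package DNA into nucleosomes, in which pairs of H2A, H2B, H3 and H4 form an octamer wrapped by DNA. In budding yeast each core histone is made from a pair of genes, and the genes lie in divergent couples, H2A beside H2B and H3 beside H4, that share a promoter. These genes are transcribed mainly in late G1 and S phase, with DNA replication. The HIR complex represses 3 of the 4 couples outside that window, all but HTA2 and HTB2, and Spt10, Spt21 and SBF act as activators. Unlike the replication-dependent histone mRNAs of animals, yeast histone mRNAs carry poly(A) tails, so an oligo(dT) primer can copy them. In the reference gene table HTA1 neighbours HTB1, HTA2 neighbours HTB2, HHT1 neighbours HHF1, and HHT2 neighbours HHF2.

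Deposited intensities are background-subtracted, in arbitrary units, and were quantile-normalized before comparison. Above background means over 3 noise SDs of the array in question, which held for 24.9% to 61.2% of spots. The spot for HSF1 itself read 37.1 and -3.61 with wild-type HSF1 and 625 and 540 with the mutant allele, and it was above background on 1 wild-type array and both mutant arrays. A point-mutant allele is not told from the wild type by such a spot, so these levels do not check the alleles. Wild-type replicate 2 had the highest background limit, 20.8 in normalized units against 5.32 to 11.4 on the other arrays. Precision is limited throughout by how few arrays there are.

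6 of the 10 histone genes, both H2A, both H2B and both H3 genes, were above background on each of the 4 arrays. All 6 had lower intensities in the mutant, by 1.50-fold to 2.92-fold, and for each of them both mutant arrays lay below both wild-type arrays. Among the 2222 genes that were bright by their mean over the 4 arrays, 22.9% lay lower in this way without overlap, and 9.9% did so by at least 2-fold. HTA2 was the 1 measurable histone gene past that 2-fold rule. The median log2 difference of the 6 genes, mutant minus wild type, was -0.69, against 0.09 for all bright genes. No histone gene passed an adjusted p of 0.05 in limma, and 0 of the 6051 features did (0%). At an unadjusted p under 0.05 limma had 710 features (11.7%), among them 1 histone gene, HTA2. The other 4 members, both H4 genes, HHO1 and HTZ1, were too dim for a statement about their level.

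**Figure D1:**
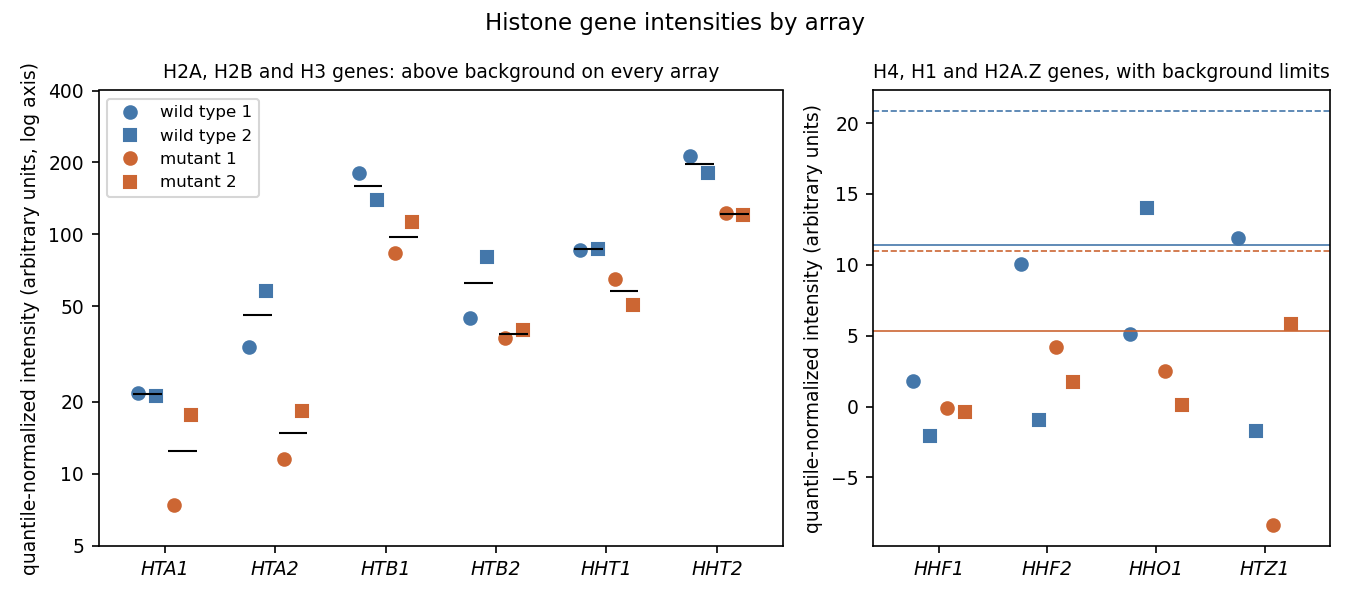
Quantile-normalized intensity of each histone gene on each array (left, log axis, 6 genes with short black lines at the strain means; right, linear axis, 4 dim genes). Horizontal lines on the right are the background limits, each to be read against the array of the same colour and line style (solid for replicate 1, dashed for replicate 2): every point on the right lies under its own limit except HTZ1 on wild-type replicate 1, and on the left both mutant points of each gene lie below both wild-type points.

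HTA2 had the largest log2 difference of the 6 genes as normalized here. HTA2 (YBL003C), the H2A gene coupled to HTB2, read 34.0 and 57.8 with wild-type HSF1 and 11.5 and 18.2 with the mutant allele. That is 45.9 ± 16.8 against 14.9 ± 4.77 (SD, n = 2 each), 2.92-fold lower in the mutant. The log2 difference was -1.55 (SE 0.51), with a 95% interval from -3.05 to -0.04 and a limma adjusted p of 0.416. 5.13% of the bright genes had a lower log2 difference than HTA2. HTA1 (YDR225W), which encodes nearly the same H2A protein, read 21.7 and 21.2 with wild-type HSF1 and 7.39 and 17.5 with the mutant allele. The wild-type arrays nearly coincided and the mutant arrays lay apart, mutant replicate 1 far below mutant replicate 2. On wild-type replicate 2 HTA1 lay only just above the background limit, 21.2 against 20.8. HTA1 was 1.79-fold lower, with a log2 difference of -0.84 (SE 0.56), an interval from -2.48 to 0.80 and a limma adjusted p of 0.672. Its log2 difference was -0.27 without mutant replicate 1, -1.41 without mutant replicate 2 and -0.19 with the values as deposited, so the size for HTA1 is not settled.

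Both H2B genes lay lower as well. HTB1 (YDR224C) read 181 and 139 with wild-type HSF1 and 83.3 and 113 with the mutant allele, 160 ± 29.7 against 98.1 ± 20.8 (SD, n = 2 each). This 1.63-fold difference had a log2 value of -0.71 (SE 0.42), an interval from -1.94 to 0.53 and a limma adjusted p of 0.638. HTB2 (YBL002W) read 44.9 and 80.4 with wild-type HSF1 and 36.9 and 39.9 with the mutant allele. Here the mutant arrays were close together, and the distance from the wild type came mostly from wild-type replicate 2. HTB2 was 1.55-fold lower, with a log2 difference of -0.63 (SE 0.48), an interval from -2.04 to 0.77 and a limma adjusted p of 0.689. Without wild-type replicate 2 its log2 difference was -0.22, and without wild-type replicate 1 it was -1.05.

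The H3 genes had the smallest standard errors of the 6 genes. HHT2 (YNL031C) read 212 and 181 with wild-type HSF1 and 123 and 120 with the mutant allele, 197 ± 22.2 against 122 ± 2.07 (SD, n = 2 each). It was 1.61-fold lower, with a log2 difference of -0.68 (SE 0.37), an interval from -1.77 to 0.40 and a limma adjusted p of 0.605. HHT1 (YBR010W), which encodes the same H3 protein, read 86.4 and 87.1 with wild-type HSF1 and 65.1 and 50.7 with the mutant allele. It was 1.50-fold lower, with a log2 difference of -0.59 (SE 0.39), an interval from -1.71 to 0.54 and a limma adjusted p of 0.670. With any 1 array left out the log2 difference ran from -0.80 to -0.57 for HHT2 and from -0.76 to -0.41 for HHT1. The sign could not change in these fits, because the strains did not overlap. The intervals of all 6 genes overlap, so their sizes cannot be ranked. The coding sequences within a pair are close copies, so the spots of a pair can share signal and the 6 genes are not 6 separate measurements.

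The direction held under the other scalings tried, and the size depended on the scaling. In all 13 alternatives each of these 6 genes had a lower mean in the mutant. Only the other scalings (values as deposited, median scaling and cyclic loess) could have reversed this. The strains did not overlap for these genes, so the remaining alternatives could not change the direction. As deposited, without normalization, the median over all features was 0.63 higher in the mutant (log2), and that over the bright genes was 0.52 higher. The median of the 6 genes was -0.56, or -1.19 relative to the median over all features. HTA1 and HTB2 overlapped between the strains on that scale, and HTA2, HTB1, HHT1 and HHT2 did not. With each array scaled to a common median the 6 genes had a median of -1.28, against -0.18 for the bright genes. On that scale 5 of the 6, all but HTA1, passed the 2-fold rule, as did 772 of all 6051 features downward. All features had a median of 0.05 there, so bright genes as a set lay lower than features as a whole. No share over the bright genes alone is given for that scale. HTB1 was then at -1.47 and HHT2 at -1.54. The lowest adjusted p of any of the 6 in limma was 0.156 over all alternatives, for HTA2 among the bright genes alone.

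**Figure D2:**
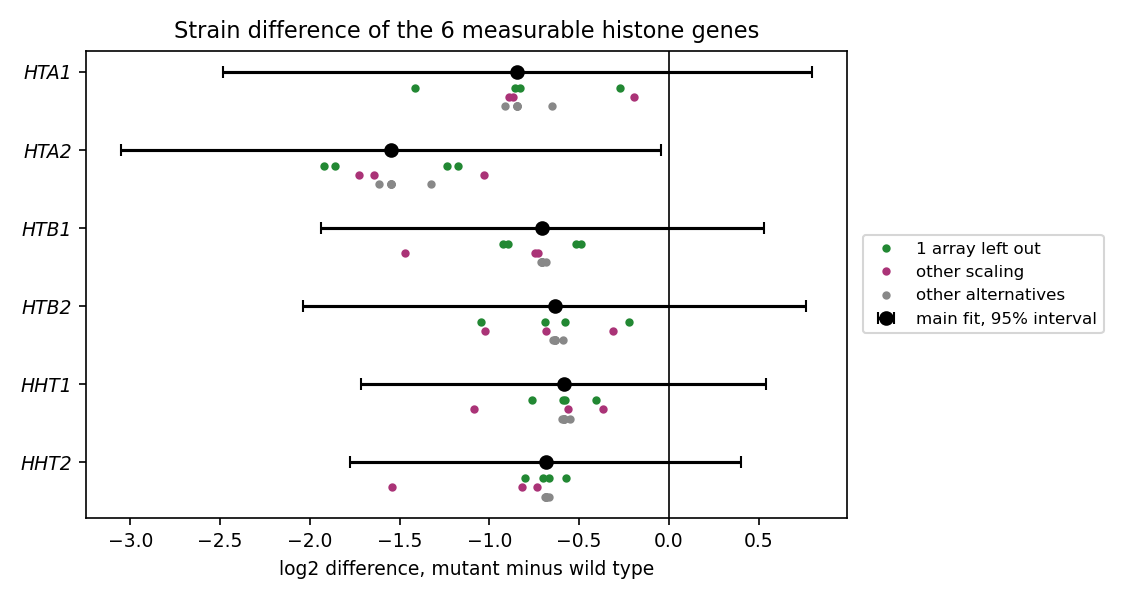
Log2 difference (mutant minus wild type, x axis) of the 6 measurable histone genes: black points with 95% limma intervals are the reported values, and coloured dots the 13 alternatives. All dots lie below 0, HTA2 lies lowest at -1.55, and the interval of HTA2 is the only one that stops short of 0.

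The ratio between a pair of spots on the same array removes a factor common to that array. It does not remove differences between arrays that vary with intensity. It shows unequal differences only, and 5 such ratios were computed from the deposited intensities. The log2 ratio of HTB2 to its neighbour HTA2 was 0.46 and 0.67 with wild-type HSF1 and 1.51 and 1.13 with the mutant allele. It was higher on both mutant arrays, by 0.76 on average, and by 0.91 after quantile normalization. On these arrays HTA2 thus lay lower in the mutant relative to HTB2, an order that was not tested. The log2 ratio of HHT2 to HHT1 was 1.42 and 1.38 with wild-type HSF1 and 0.77 and 1.12 with the mutant allele. The strains did not overlap and differed by -0.45, but quantile normalization left -0.10. For HTB1 to HTA1 the log2 ratio was 3.38 and 3.30 with wild-type HSF1 against 3.05 and 2.54 with the mutant allele. Its difference of -0.54 turned to 0.14 after quantile normalization, so no order between these neighbours is given. The log2 ratio of HTA2 to HTA1 was 0.75 and 1.59 with wild-type HSF1 and 0.55 and 0.05 with the mutant allele, without overlap. The log2 ratio of HTB1 to HTB2 was 2.18 and 1.05 with wild-type HSF1 and 0.99 and 1.36 with the mutant allele, and the strains overlapped. With 2 arrays per strain the smallest two-sided p of an exact permutation test is 0.333, so no test is given for these ratios.

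**Figure D3:**
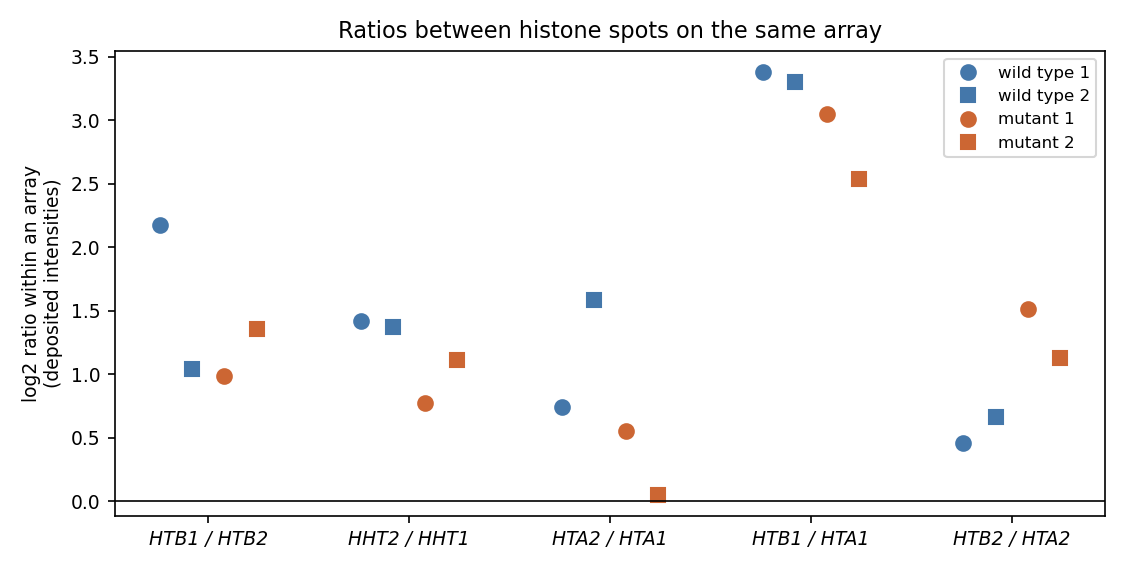
Log2 ratio of pairs of histone spots within each array (y axis, deposited intensities), with wild-type arrays in blue and mutant arrays in orange. HTB2 over HTA2 is higher on both mutant arrays, HHT2 over HHT1, HTA2 over HTA1 and HTB1 over HTA1 are lower on both, and HTB1 over HTB2 overlaps between the strains.

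The H4 genes gave no usable level. HHF1 (YBR009C) read 1.77 and -2.05 with wild-type HSF1 and -0.07 and -0.38 with the mutant allele, and HHF2 (YNL030W) read 10.03 and -0.97 against 4.204 and 1.76. Neither was above background on any array, so no fold is given for H4, although their H3 neighbours were among the brighter spots. HHO1 (YPL127C), the linker histone H1, read 5.10 and 14.0 with wild-type HSF1 and 2.53 and 0.12 with the mutant allele, all under the background limits. It meets the 2-fold rule by its log2 values and makes the count over all 10 members 2 lower and 0 higher, against 12.8% lower and 13.5% higher over all features. Since every HHO1 value is below background, no difference is stated for it. HTZ1 (YOL012C), the H2A variant placed near promoters by the SWR1 complex, read 11.9 and -1.69 with wild-type HSF1 and -8.35 and 5.83 with the mutant allele. It was above background on wild-type replicate 1 alone, and the strains overlapped. Over all 10 members 7 lay lower without overlap, HHO1 included, against 19.3% of all features.

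The regulators of histone transcription held members of both directions. All 12 listed regulators were measured, 8 had a higher and 4 a lower mean in the mutant, and the median log2 difference was 0.50, against 0.01 over all features. Over the 5 bright regulators 2 were lower and 3 higher, with a median of 0.19, against 0.09 for all bright genes. 1 of the 12 met the 2-fold rule upward and none downward, against 13.5% and 12.8% of all features. The 1 upward was the chaperone and HIR cofactor gene ASF1, which was below background on every array. 7 of the regulators lay below the brightness limit. HIR3 (YJR140C), a subunit of the HIR repressor complex, read 425 and 485 with wild-type HSF1 and 262 and 291 with the mutant allele. It was 1.64-fold lower, with a log2 difference of -0.72 (SE 0.37) and a limma adjusted p of 0.590. Its size depended on the scaling, at -1.29 as deposited and -2.02 with median scaling. The other HIR subunits listed, HIR1, HIR2 and HPC2, were below background on every array, so no statement is made on the complex. SWI4 and SWI6, the subunits of SBF, and MBP1, the DNA-binding subunit of MBF, were the other bright regulators beside YTA7 and are named after their values were seen. Their log2 differences were 0.19 (SE 0.36), 1.02 (SE 0.69) and 0.39 (SE 0.41), and that of YTA7 was -0.05 (SE 0.39). SWI6 and YTA7 overlapped between the strains. SWI6, MBP1 and YTA7 were above background on both mutant arrays but on only 1 wild-type array.

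HIR3 was also among the genes whose values over the 4 arrays were most like those of the histone genes. Likeness was the Euclidean distance between log2 values centred on each gene's mean, measured from the mean profile of the 6 histone genes over 4 arrays, among 2115 bright named genes. The 5 closest were PTH2, PPE1, HIR3, SNA3 and RPL31A, at distances of 0.06 to 0.18. PTH2 encodes a peptidyl-tRNA hydrolase and RPL31A a ribosomal protein. Their log2 differences were -0.80 for PTH2, -0.75 for PPE1, -0.67 for SNA3 and -0.86 for RPL31A. A profile over 4 arrays holds little beyond the strain difference.

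Histone chaperones, which carry histones to and from DNA, had higher means in 12 of 18 cases, with a median of 0.41. 2 met the 2-fold rule upward, KAP123 and ASF1, and 2 downward, NHP6B and CHZ1, near the shares over all features (13.5% higher and 12.8% lower). ASF1, NHP6B and CHZ1 were below background on every array. KAP123, an importin that brings H3 and H4 into the nucleus, was the 1 member past the rule that was above background on both arrays of a strain. It read 4.14 and 7.42 on the wild-type arrays, neither above background, and 17.5 and 20.2 on the mutant arrays. With the wild-type arrays set at their background limits it was at least 1.20-fold higher. KAP123 passed the filter through the mutant arrays alone, and both mutant values lie under the limit of wild-type replicate 2, 20.8. The FACT subunits SPT16 and POB3, named after their values were seen, went opposite ways, 1.67-fold higher (log2 0.74, SE 0.46) and 1.57-fold lower (log2 -0.65, SE 0.40). The SWR1 and INO80 complexes, which exchange H2A.Z, had 8 lower and 8 higher of 16 members. VPS71 and INO80 met the 2-fold rule upward and CHZ1 downward beside SWC4, but none of these 3 was above background on both arrays of a strain. SWC4, a subunit shared by SWR1 and the acetyltransferase NuA4, read 27.3 and 3.86 with wild-type HSF1 and 36.6 and 37.7 with the mutant allele. It was above background on 1 wild-type array, and its 3.23-fold difference rests on wild-type replicate 2, the lower of the wild-type arrays, with a log2 value of 1.69 (SE 1.02) that ranged from 0.43 to 2.96 over the alternatives.

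Enzymes that modify histones showed no common direction. Of 19 acetylation and deacetylation genes 11 were higher and 8 lower, with HAT1, SAS2 and SIN3 past the 2-fold rule downward, none of them above background on both arrays of a strain, a share near the 12.8% of all features that met it. Of 12 methylation and ubiquitination genes 7 were higher. BRE1, the ubiquitin ligase for H2B, read 8.70 and -5.14 on the wild-type arrays, neither above background, and 12.2 and 13.2 on the mutant arrays. It was named through the mutant arrays alone, and both mutant values lie under the limit of wild-type replicate 2, 20.8. RAD6, the conjugating enzyme that works with Bre1, is named with its value known and was 1.77-fold lower, from 41.7 ± 1.50 to 23.1 (n = 2 each), with both mutant arrays at the same normalized value. Proteins with a histone fold that are not histones had 11 of 18 lower, with a median of -0.16. 1 member met the 2-fold rule upward, TAF6, and 2 downward, TAF9 and HAP3, against 13.5% and 12.8% of all features. TAF9 and HAP3 were below background on every array. TAF6, a TFIID subunit, was at 2.93 ± 1.74 in the wild type, below background on both arrays. In the mutant it was at 8.62 ± 4.11 (SD, n = 2 each). TAF6 was named through the mutant arrays alone, where it read 5.71 and 11.5, both under the limit of wild-type replicate 2, 20.8.

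Genes that mark the phases of the cell cycle were examined because histone genes are transcribed with replication. Of the G1/S and replication list 23 of 24 genes were measured, 15 had a higher mean in the mutant and 7 a lower one, with a median of 0.45 and 4 past the 2-fold rule upward and 2 downward, near the 13.5% and 12.8% of all features. Leaving out wild-type replicate 1 gave a median of 0.12, leaving out wild-type replicate 2 gave 0.77, and leaving out negative values gave 0.13. Over its 10 bright members 7 were higher, with a median of 0.42. POL2, the catalytic subunit of DNA polymerase epsilon, read 23.1 and 34.8 with wild-type HSF1 and 6.03 and 12.6 with the mutant allele, with a log2 difference of -1.58 (SE 0.55), or -0.96 as deposited, and a limma adjusted p of 0.433. CDC9, the DNA ligase, read 4.04 and 4.05 on the wild-type arrays, neither above background, and 10.2 and 13.7 on the mutant arrays. Both mutant values lie under the limit of wild-type replicate 2, 20.8, and 10.2 also under that of wild-type replicate 1, 11.4. Being above background in the mutant alone therefore does not by itself show a strain difference for CDC9. The clamp gene POL30 and the replication protein A gene RFA1, named after their values were seen, had log2 differences of 0.45 (SE 0.38) and 0.10 (SE 0.37).

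Of 11 measured G2/M genes 6 were higher and 5 lower, with a median of 0.37, and -0.63 over the 2 bright members. ALK1, a haspin-related kinase gene, read 35.8 and 64.1 with wild-type HSF1 and 20.4 and 26.3 with the mutant allele, 2.02-fold lower, with a log2 difference of -1.02 (SE 0.49). Of 13 M/G1 genes 7 were higher and 6 lower, with a median of 0.22. ASH1, a repressor made in daughter cells, read 51.9 and 38.3 with wild-type HSF1 and 120 and 87.9 with the mutant allele, 2.27-fold higher, with a log2 difference of 1.18 (SE 0.43) and a limma adjusted p of 0.450. No gene of these 9 lists passed the adjusted threshold in limma. As deposited, where the median of all features was 0.63, the medians of the 9 lists ran from 0.46, for histone-fold proteins, to 1.16, for the regulators. Over the other alternatives the medians of the lists for regulators, chaperones and G1/S genes stayed above 0, and that for histone-fold proteins stayed below 0. The medians of the lists for H2A.Z exchange, acetylation, methylation, G2/M and M/G1 genes changed sign. In a population of cells, fewer cells in a phase and less RNA per cell cannot be told apart. The part of cell-cycle position in the histone differences was not tested.

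**Figure D4:**
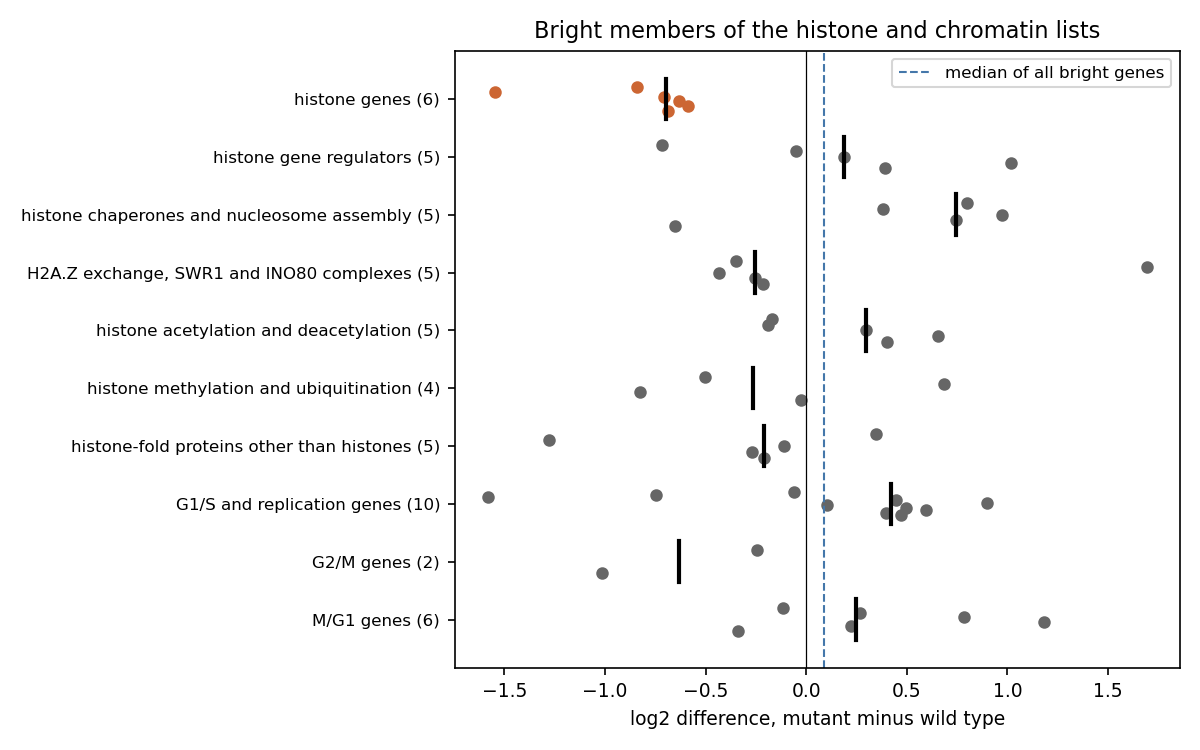
Log2 difference (mutant minus wild type, x axis) of the bright members of the histone genes and of 9 lists of related genes, with the number of bright members in brackets and a black line at each median; the dashed line is the median of all bright genes, 0.09. The 6 histone genes, in orange, all lie below 0, and each of the other lists with more than 2 bright members has members on both sides of 0.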

How the data were processed

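The deposited values are spot intensity values, 1 per spot and array, linear and with negative numbers. The authors' 4 column means are close to equal. For the software, the background method, the scaling and the array type: not given in the sources used here. Of 6084 spots, GEO's platform annotation named 5523, all matched by gene identifier to a current gene table. Spots of 1 gene were averaged on the log2 scale. Quartiles differed between arrays, so values were quantile-normalized (limma 3.58.1, R 4.3.3), set to 0 where negative, increased by an offset of 1.06 (the 5th percentile of positive values), and logged. Noise per array came from the negative values. A bright gene has a mean log2 level above the mean of the 4 background limits. limma (lmFit, eBayes, two-sided, no block) used all 4 arrays, with Benjamini-Hochberg adjustment over 6051 features, and was tested on simulated data. It had 2 residual and 1.54 prior degrees of freedom. Printed intensities are normalized, before the offset, and folds come from the log2 means. The 2-fold rule also asks that the strains do not overlap. A gene above background on no array of 1 strain has only a bound or no fold.

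The members and lists were chosen with earlier results of these data known. All 10 histone genes are named. From each list up to 3 genes are named, those with the largest differences among genes past the 2-fold rule and above background on both arrays of a strain, and others are marked as named after their values were seen. Background limits differed between arrays, and the filter admitted more genes with a higher mean in the mutant. Of the 2511 genes passing it 38.6% had a lower mean in the mutant, against 48.5% of all features. Same-numbered arrays are not described as paired. Their deviations correlated at 0.02 over all features, so the numbers were not used as pairs. Promoter motifs of the histone genes were planned and not analysed here.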

Additional observations from a re-analysis of the deposited data

How the results depend on the processing

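13 alternatives were run, and the direction of HTA1, HTA2, HTB1, HTB2, HHT1 and HHT2 was the same in all of them. For these genes only the alternatives that changed the scaling could have reversed it. Over all features, adjusted calls in limma numbered 0, but 1 with negative values left out, 1 with genes above background on both arrays of a strain, and 12 with bright genes alone; fits without 1 array gave 0. The 818 features past the 2-fold rule upward became 1700 as deposited, 458 with the larger offset, 469 with genes above background, 283 with bright genes and 1054 to 1288 without 1 array. The 772 downward became 338, 395, 228 and 220 in the same order, and 996 to 1405 without 1 array. The 2 histone genes past the rule downward became 1 as deposited, with genes above background and with bright genes alone, 6 with median scaling, 4 without an offset, 4 with negative values left out and 2 to 5 without 1 array, and 0 to 1 were upward without 1 array. The 1 upward was HHF2, which is below background. The 7 without overlap downward became 4 as deposited and 7 to 10 without 1 array. The median of the 6 measurable genes became -1.28 with median scaling and ranged from -0.83 to -0.64 without 1 array. Leaving negative values out moved the median of all features to -0.17. The dim genes turned: HHF1 was 0.33 as deposited and 0.051 with median scaling; HHF2, 0.17 as reported, was -0.21 with cyclic loess, -0.14 with the larger offset, -1.88 without an offset, -1.53 with negative values left out and -1.53 to 1.86 without 1 array; and HTZ1 ran from -2.26 to 1.35 without 1 array. The cause of these shifts was not tested. The replicate block left each of these counts as reported (0 adjusted calls, 818 and 772 features, 2 and 7 histone genes) and the median of the 6 genes at -0.69. Signal over background limits what can be said of H4, HHO1 and HTZ1.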
